A study of Rattus norvegicus with 8 samples.

Results

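The 8 genes described here encode receptors for acetylcholine in the rat: the muscarinic receptors Chrm1, Chrm2, Chrm3, Chrm4 and Chrm5 and the nicotinic subunits Chrna4, Chrna7 and Chrnb2. They were selected on their signals in these same arrays and found by gene name, which gave 12 probes among 41012 and 8 genes among 12479 symbols. Since the signals that chose them are the ones given below, the values are a description with no test.

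RNA came from pyramidal neurons of the hippocampal CA3 subfield, cut by laser from frozen brain sections of male Sprague-Dawley rats whose age is not given in the sources used here. It was amplified and measured on 8 single-color Agilent arrays, 2 for each of 4 groups. Naïve rats had no treatment, sham rats had a sham injury, and injured rats received a moderate blow to the brain by fluid percussion, with brains taken 24 h later. In their sections, neurons without Fluoro-Jade, a dye taken up by degenerating neurons, were called surviving, and neurons stained by it were called dying. The study calls the replicates of dying and surviving neurons biological, each a pool of about 600 cells from at least 3 injured rats, and states that samples were hybridized in duplicate. Whether the replicates of a group share rats, and how the naïve and sham replicates relate to each other, is not given in the sources used here. Surviving neurons were taken next to dying ones, so that both kinds of pool may share rats and sections. The labels name a pair of amplification kits without saying which pool had which, and give no cell number for the naïve and sham pools. Surviving and dying neurons were called by the dye alone, which does not follow the later fate of a cell.

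Acetylcholine reaches CA3 mainly from cholinergic neurons of the medial septum. Muscarinic receptors are single proteins that act through G proteins. M1, M3 and M5 couple to Gq, which activates phospholipase C and closes potassium channels, while M2 and M4 couple to Gi and Go, which lower cyclic AMP and open potassium channels. Nicotinic receptors are channels built from 5 subunits. In the brain most contain alpha4 together with beta2, or alpha7 alone, and the alpha7 channel passes much calcium. In the hippocampus, muscarinic signaling sets the excitability of pyramidal neurons, and nicotinic receptors lie largely on interneurons and on the endings of incoming fibers.

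Signals are given as log2 of a probe's signal over its array's median. Before this step the median was 27.2 and 22.7 on the naïve arrays and 16.5 and 16.4 on the sham arrays. It was 52.2 and 48.2 for surviving neurons and 19.2 and 52.6 for dying neurons. A probe is called detected where the scanner software marked it as well above background, and 15250 probes were detected on all 8 arrays. The lowest log2 scaled signal of a detected probe was -0.77 and -0.81 on the naïve and -0.30 and -0.15 on the sham arrays. It was -2.30 and -1.63 on the surviving and -1.35 and -2.07 on the dying arrays, so that a weak probe could be detected on the injured arrays at a scaled signal too low for the sham arrays.

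Dying replicate 1 stood apart from dying replicate 2. Over the 15250 probes, the pair of dying arrays had a Pearson's r of 0.892, against 0.976 for surviving, 0.985 for sham and 0.966 for naïve. Each r is taken over probes, and probes do not count as independent replicates. Surviving and dying arrays shared 1 slide, 1 scan and 1 version of the extraction protocol, and naïve and sham arrays shared others. Surviving can therefore be set against dying, and sham against naïve, within a slide, but against sham the effects of injury and of slide cannot be told apart. The comparisons of surviving and of dying with sham also share the sham arrays. Under the main scaling, the median difference over the 15250 probes was 0.21 for surviving less dying and 0.39 for sham less naïve. It was -0.80 for surviving less sham and -0.95 for dying less sham, and differences from sham are also given relative to these medians.

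**Figure D1:**
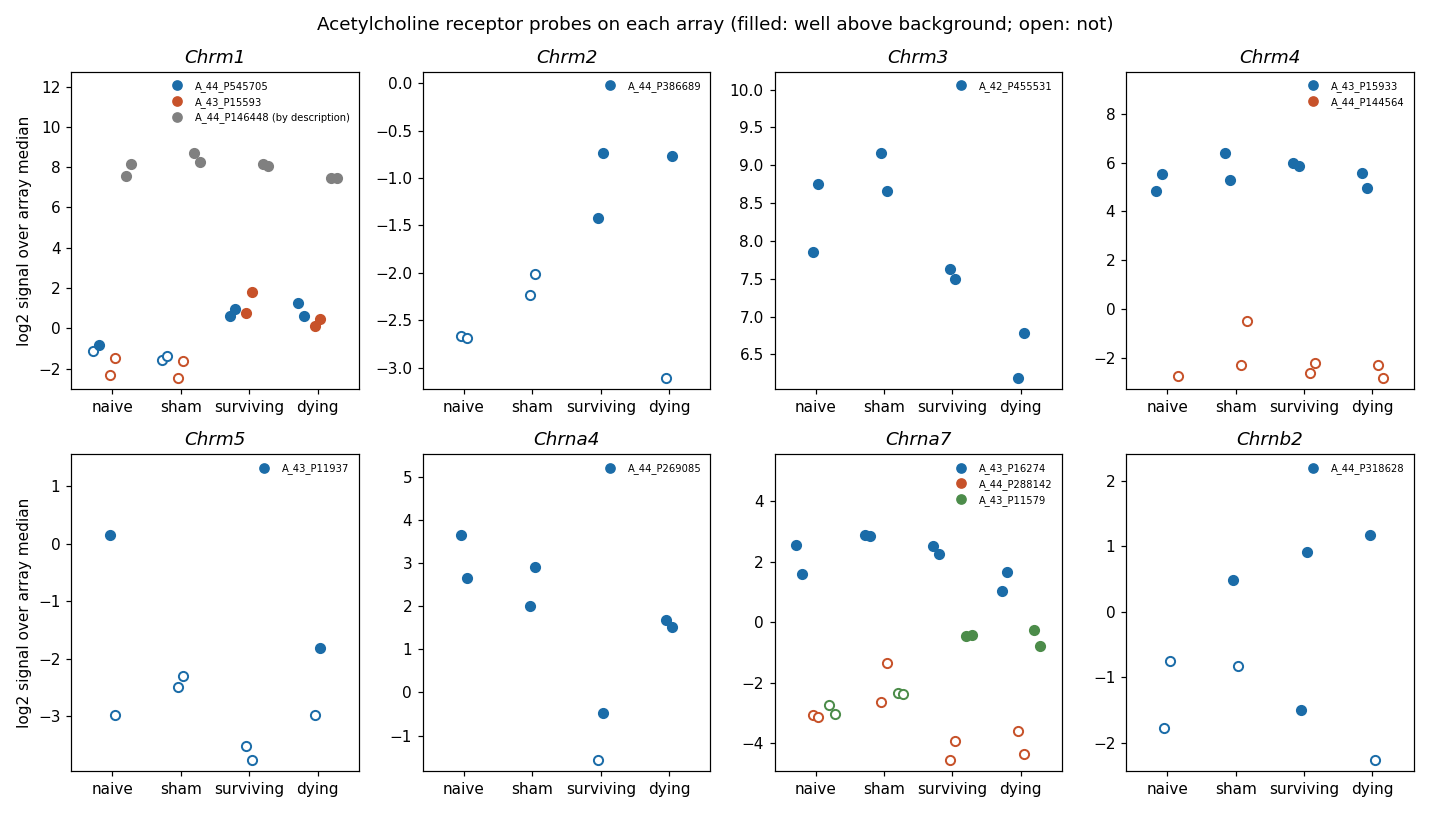
Log2 signal over the array median (vertical axis) of each receptor probe on each of the 8 arrays, by group (horizontal axis). Each point is 1 array, filled where the probe was well above background and open where it was not, and the vertical scale differs between genes. Chrm3 lay between 6.19 and 6.78 in dying neurons and between 7.49 and 7.63 in surviving neurons, and Chrna4 lay at -1.57 and -0.48 in surviving neurons, below every other array. The grey points are the probe described as the m1 gene, which the gene name did not find.

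Chrm3 encodes the M3 receptor, which couples to Gq. Its single probe, A_42_P455531, was detected on all 8 arrays. The log2 signal of Chrm3 was 6.19 and 6.78 in dying, 7.63 and 7.49 in surviving, 9.17 and 8.66 in sham and 7.86 and 8.75 in naïve neurons. Both dying arrays lay below both surviving arrays, both surviving arrays lay below every naïve and sham array, and naïve and sham overlapped. In the order sham, naïve, surviving, dying, the means were 8.91 ± 0.36, 8.30 ± 0.63, 7.56 ± 0.10 and 6.48 ± 0.42 (SD, n = 2). Chrm3 was 2.11-fold higher in surviving than in dying neurons, a log2 difference of 1.08, and the difference was 0.78 against dying replicate 2 alone. It was 5.39-fold lower in dying neurons than in sham, a log2 difference of -2.43, or -1.47 relative to the median of the detected probes. The difference of surviving neurons from sham was -1.35, or -0.56 relative to that median. These 3 differences kept their direction under the 8 alternatives of scaling, background correction, floor, spot choice and source of values that were run, with ranges of 0.72 to 2.44, -2.72 to -1.28 and -1.55 to -0.28, though surviving and sham arrays overlapped under the normexp background correction.

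Chrna7 encodes alpha7, which forms a channel of its own with high passage of calcium. It has 3 probes. The probe A_43_P16274, spotted 10 times on each array, was detected on all 8, with a log2 signal of 1.04 and 1.65 in dying, 2.53 and 2.25 in surviving, 2.90 and 2.85 in sham and 2.56 and 1.60 in naïve neurons. Both dying arrays lay below both surviving arrays, which lay below both sham arrays, while naïve replicate 2 lay within the dying range. The means were 2.88 ± 0.03 in sham, 2.39 ± 0.20 in surviving, 2.08 ± 0.68 in naïve and 1.35 ± 0.44 in dying neurons (SD, n = 2), and under this scaling the naïve mean did not differ from that of surviving neurons beyond its spread. By this probe Chrna7 was 2.06-fold higher in surviving than in dying neurons, a log2 difference of 1.04, and of 0.73 against dying replicate 2 alone. The difference ranged from 0.29 to 1.24 over the alternatives. The difference of dying neurons from sham was -1.53, or -0.58 relative to the median of the detected probes, and ranged from -1.54 to -0.52. The difference of surviving neurons from sham was -0.49, and it turned to 0.29 with scaling to the 75th percentile, 0.49 to the median of the detected probes, 0.21 with quantile normalization and 0.36 with the normexp background correction, so that it has no settled direction.

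Chrna7 has a pair of weaker probes. Probe A_44_P288142 was detected on 0 of 8 arrays. Probe A_43_P11579 was detected on the 4 injured arrays only, with -0.24 and -0.79 in dying and -0.45 and -0.40 in surviving neurons, and measured -2.74 and -3.04 in naïve and -2.33 and -2.38 in sham. Surviving and dying overlapped by this probe, and both lay above the controls, whereas by the 10-spot probe both dying arrays lay below both sham arrays. Its signals on the injured arrays lay near or below the detection limit of the sham arrays, so no fold is given. All 3 probes carry the same transcript accession.

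Chrna4 encodes alpha4, the partner of beta2 in the channels that bind nicotine most tightly. The log2 signal of its single probe, A_44_P269085, was 1.68 and 1.53 in dying, -1.57 and -0.48 in surviving, 1.9965 and 2.92 in sham and 3.66 and 2.66 in naïve neurons. It was detected on 7 arrays, all but surviving replicate 1. Both surviving arrays were the lowest of the 8, both dying arrays lay between them and the controls, and naïve and sham overlapped. The means were 3.16 ± 0.71 in naïve, 2.46 ± 0.66 in sham, 1.60 ± 0.10 in dying and -1.02 ± 0.78 in surviving neurons (SD, n = 2). The log2 difference from dying neurons was -2.08 for surviving replicate 2, the surviving array on which Chrna4 was detected. The other was not above background, so that no fold and no exact difference of the surviving mean is given. Both surviving arrays stayed below both dying arrays under the 8 alternatives run, and lay closest to them under normexp. From sham, the difference was -2.94 for surviving replicate 2 alone, and both surviving arrays stayed below both sham arrays under the 8 alternatives. The difference of dying neurons from sham was -0.86, or 0.10 relative to the median of the detected probes. It turned to 0.15 where arrays were scaled to the probes detected on all of them.

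Surviving and dying overlapped by the weaker Chrna7 probe A_43_P11579. By its 10-spot probe Chrna7 was lower in dying than in surviving neurons, as was Chrm3, and Chrna4 was higher. The arrays stayed apart by these probes under every alternative scaling run. The promoters of Chrm3, Chrna7 and Chrna4 are shown for that reason. The arrays of Chrm4, also lower in dying neurons, overlapped under 1 of the scalings. RefSeq held promoters of 7 of the 8 genes on the assembly GRCr8, each 300 bases around the start of the gene, and that of Chrm5 is named only. Capitals mark the GC box GGGCGG and the E-box CACGTG, searched on both strands. The first was found in 33.1% and the second in 6.42% of 33469 promoters. The Chrm3 promoter, chr17:64696677-64696976 on the plus strand, held 2 GC boxes. That of Chrna7, chr1:126249080-126249379 on the minus strand, held 2 GC boxes and 1 E-box, and that of Chrna4, chr3:188534477-188534776 on the minus strand, held 3 GC boxes.
Chrm3: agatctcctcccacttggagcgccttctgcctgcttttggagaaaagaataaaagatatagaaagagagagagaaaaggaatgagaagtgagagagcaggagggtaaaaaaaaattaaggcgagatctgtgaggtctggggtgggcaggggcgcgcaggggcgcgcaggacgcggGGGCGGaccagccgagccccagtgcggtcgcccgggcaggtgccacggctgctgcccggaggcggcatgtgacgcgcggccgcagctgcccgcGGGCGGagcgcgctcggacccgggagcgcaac
Chrna7: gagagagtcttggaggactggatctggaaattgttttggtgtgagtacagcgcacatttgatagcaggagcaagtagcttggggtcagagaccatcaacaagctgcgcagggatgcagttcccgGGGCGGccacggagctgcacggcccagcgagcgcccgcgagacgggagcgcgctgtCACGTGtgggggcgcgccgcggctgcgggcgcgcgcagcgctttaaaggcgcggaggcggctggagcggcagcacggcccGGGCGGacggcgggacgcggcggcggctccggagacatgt
Chrna4: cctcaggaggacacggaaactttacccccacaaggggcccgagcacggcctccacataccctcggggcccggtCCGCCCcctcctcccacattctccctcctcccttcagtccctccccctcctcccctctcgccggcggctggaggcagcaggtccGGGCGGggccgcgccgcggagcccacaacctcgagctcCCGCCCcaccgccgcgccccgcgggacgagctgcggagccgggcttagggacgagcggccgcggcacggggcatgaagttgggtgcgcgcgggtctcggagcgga

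The TATA box TATAAA, the cyclic AMP element TGACGTCA and TCAGCACC, a piece of the REST element, found in 14.2%, 1.83% and 1.48% of promoters, had 0 matches in the 7. GC made up 64.0% of the bases for Chrm3, 68.3% for Chrna7 and 74.7% for Chrna4, against a median of 51.7% over all promoters. For the others it was 57.7% in Chrm1, 60.3% in Chrm2, 72.0% in Chrm4 and 61.0% in Chrnb2, and the GC box was found 0, 1, 5 and 1 times. These matches describe the letters of the windows and are not binding sites.

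Chrm1 encodes the M1 receptor, the main Gq-coupled receptor of pyramidal neurons. Probe A_44_P545705 gave a log2 signal of 1.27 and 0.64 in dying, 0.61 and 0.97 in surviving, -1.58 and -1.36 in sham and -1.11 and -0.80 in naïve neurons. Probe A_43_P15593 gave 0.14 and 0.49 in dying, 0.79 and 1.83 in surviving, -2.45 and -1.61 in sham and -2.33 and -1.47 in naïve neurons. By both probes the 4 injured arrays lay above the 4 control arrays, and each was detected on all 4 injured arrays and on 0 sham arrays. Where no array of a group was detected, a lower bound is given, taken against whichever is higher on each of its arrays, the lowest detected signal or the probe's own. In surviving neurons Chrm1 was at least 2.02-fold higher than in sham by the first probe and at least 2.89-fold by the second. In dying neurons the bounds were at least 2.26-fold and at least 1.45-fold. These bounds hold for the main scaling alone, and under normexp the differences from sham by the first probe were smaller than its bounds. Between surviving and dying neurons the 2 probes differed: the groups overlapped by the first, with a log2 difference of -0.16 that turned to 0.22 under normexp, and did not by the second, with 0.996.

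Another probe was not found by the gene name. A_44_P146448 carries an accession in place of a symbol, M16406, and its description names the rat m1 muscarinic receptor gene. It was found by that description after its values were seen. It was detected on all 8 arrays, with a log2 signal of 7.45 and 7.47 in dying, 8.15 and 8.04 in surviving, 8.72 and 8.28 in sham and 7.56 and 8.18 in naïve neurons. Both surviving arrays lay above both dying arrays, by 0.63, and below both sham arrays, by a log2 difference of -0.41. Relative to the median of the detected probes, the differences from sham were 0.39 for surviving and -0.08 for dying neurons. Whether Chrm1 was higher or lower in surviving neurons than in sham thus depended on the probe under the main scaling, and why the probes differed was not tested.

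Chrm4 encodes the M4 receptor, which couples to Gi and Go. Its probe A_43_P15933 was detected on all 8 arrays, with a log2 signal of 5.58 and 4.95 in dying, 5.99 and 5.87 in surviving, 6.41 and 5.30 in sham and 4.84 and 5.55 in naïve neurons. Both dying arrays lay below both surviving arrays, and the sham arrays spanned the surviving ones. The means were 5.93 ± 0.09 in surviving, 5.86 ± 0.79 in sham, 5.27 ± 0.44 in dying and 5.19 ± 0.50 in naïve neurons (SD, n = 2), and under this scaling surviving did not differ from sham, nor dying from naïve, beyond the spread. The log2 difference of surviving neurons from sham was 0.07, or 0.87 relative to the median of the detected probes. It was 0.86 at the 75th percentile, 1.05 at the median of the detected probes and with quantile normalization, and 1.37 with normexp, with both surviving arrays above both sham arrays in these 4, and -0.48 for the mean over both probes. The difference of dying neurons from sham was -0.59 and turned to 0.14, 0.42 and 0.66 under the first 3 of these. Chrm4 was 1.58-fold higher in surviving than in dying neurons, a log2 difference of 0.66 that ranged from 0.31 to 2.07 over the alternatives, and the arrays overlapped at 0.31, with scaling to the median of RefSeq probes. It was 0.97 against dying replicate 2 alone and 0.35 against dying replicate 1 alone. The second probe, A_44_P144564, was detected on 0 arrays and had no usable spot on naïve replicate 1.

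Chrm2 encodes the M2 receptor, also coupled to Gi and Go and known as an autoreceptor on cholinergic endings. Its log2 signal was -3.11 and -0.77 in dying, -1.42 and -0.73 in surviving, -2.23 and -2.01 in sham and -2.67 and -2.68 in naïve neurons. It was detected on both surviving arrays and on dying replicate 2 and on none of the other arrays. Dying replicate 1 lay below every other array and dying replicate 2 beside the surviving ones, so that the groups overlapped. The detected signals of Chrm2 lay below the detection limit of the sham arrays, and no fold is given.

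Chrm5 encodes the M5 receptor, coupled to Gq and best known from dopamine neurons of the midbrain. It was detected on naïve replicate 1, at 0.16, and on dying replicate 2, at -1.82, and measured between -3.77 and -2.30 on the other 6 arrays. Chrm5 therefore passed the filter for low signals in none of the 4 comparisons.

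Chrnb2 encodes beta2, which joins alpha4 in the main nicotinic channel of the brain. Its log2 signal was 1.18 and -2.26 in dying, -1.49 and 0.92 in surviving, 0.48 and -0.83 in sham and -1.78 and -0.74 in naïve neurons. It was detected on sham replicate 1, both surviving arrays and dying replicate 1. The replicates of Chrnb2 lay farther apart than the groups, with an SD of 1.70 in surviving and 2.43 in dying neurons, and all 4 groups overlapped. Unlike Chrna4, whose arrays separated surviving from dying neurons, Chrnb2 gave no order of the groups.

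A probe entered a comparison if it was detected on both arrays of at least 1 of its groups. Between surviving and dying neurons this held for 9 of the 12 receptor probes, from 7 genes. Of these, 4 had both surviving arrays above both dying arrays, as did 30.2% of all probes compared, and 1 had them below, as did 21.9%. Between surviving neurons and sham, 9 probes from 7 genes entered, of which 4 lay higher in surviving neurons and 3 lower, against 28.1% and 48.9% of all probes. Between dying neurons and sham, 7 probes from 5 genes entered, of which 3 lay higher in dying neurons and 3 lower, against 31.0% and 45.6%. Between sham and naïve, 4 probes from 4 genes entered, and 1, for Chrna7, lay higher in sham, against 38.5% of all probes, and 0 lay lower, against 5.02%. The genes were chosen on these arrays, so that nothing is read from the counts.

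**Figure D2:**
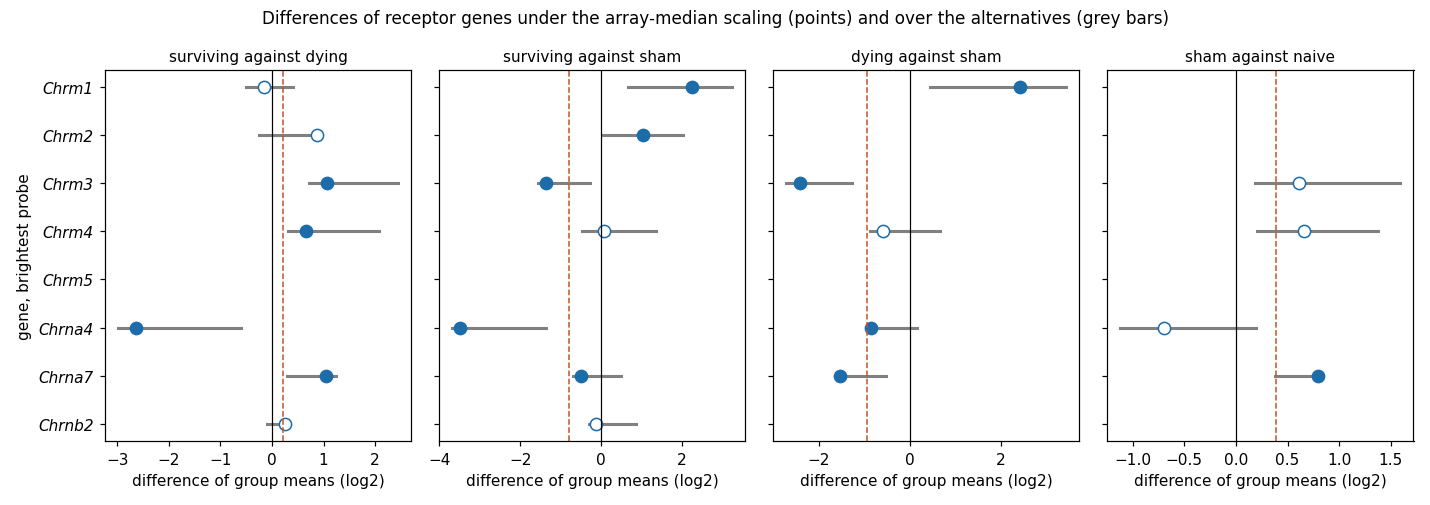
Difference of group means on the log2 scale (horizontal axis) for each receptor gene that entered the comparison (vertical axis), in 4 comparisons. Each gene is shown by the brightest of its probes found by gene name. The brighter probe described as the m1 gene is not shown for Chrm1, and by it surviving less sham was -0.41, the other direction from the plotted probe. Points give the main scaling, filled where the 2 arrays of one group lay above both of the other, grey bars the range over alternative scalings, background corrections and probe means, and the dashed line the median of the probes detected on all arrays. For surviving less dying, Chrm3 lay at 1.08, and Chrna4 lay below 0, with 1 of its surviving arrays not above background. For surviving less sham, the bars of Chrm4, Chrna7 and Chrnb2 cross 0.

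Sham and naïve arrays overlapped for Chrm3, Chrm4 and Chrna4. Chrna7 lay higher in sham by a log2 difference of 0.80, or 0.41 relative to the median of the detected probes. It ranged from 0.37 to 0.84 over the alternatives, and its arrays too overlapped at the 75th percentile, at the median of the detected probes and with quantile normalization. The differences of Chrm3 and Chrm4 were 0.61 and 0.66, or 0.22 and 0.28 relative to that median. That of Chrna4 was -0.70, or -1.09 relative to the median, and it turned to 0.20 under the normexp background correction.

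For the receptors detected on all arrays, the 3 probes of other genes whose log2 signals were most like theirs over the 8 arrays were sought among 6525 probes, as a description. Chrm3 was most like Thra, Luzp1 and Rab11a, with Pearson's r of 0.997, 0.997 and 0.996, and 864 of the probes had an r above 0.95 with it, while the median r was 0.726. Chrna7 was most like Usp6nl, Anxa6 and Ache, with r of 0.979, 0.974 and 0.932, and 2 probes passed 0.95. The Ache probe here is not the brightest of that gene. Chrm4 was most like Noc4l, Zfp580 and Cd24, with r of 0.955, 0.953 and 0.944, and 2 probes passed 0.95. The arrays of a group share their slide and scaling, and so do these probes.

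Other genes of acetylcholine signaling were taken from 8 lists of 52 genes, of which 46 had a probe. They were compared with limma, with p-values adjusted over all probes compared. Each p-value is of the difference of means, also where a group lay below background, and not of a lower bound printed beside it. Between surviving and dying neurons, 0 of 39 pathway probes passed the threshold of 0.05, as did 0.0% of 27391 probes. An unadjusted p under it was found for 6 of the 39 and for 5898 of the 27391. Without dying replicate 2, 3 of 39 passed, along with 3245 higher and 2757 lower of all 28209 probes then compared. All 3 were higher in surviving neurons. In the fit with all arrays, Ache, the enzyme that splits acetylcholine, was higher in surviving neurons by a log2 difference of 1.37 ± 0.49 (SE), with an adjusted p of 0.173. Its log2 signal was 4.54 and 5.18 in dying, 6.54 and 5.93 in surviving, 7.38 and 6.91 in sham and 6.66 and 7.10 in naïve neurons, so that both dying arrays were the lowest. A weaker Ache probe, also detected on all 8 arrays, gave 0.60, with an adjusted p of 0.448. Kcnj6, a channel opened by M2 and M4 through G proteins, and Gnai2, a Gi subunit, were higher in surviving neurons, Kcnj6 by 2.41, with adjusted p of 0.159 and 0.149. The log2 signal of Kcnj6 was 0.38 and 2.99 in dying and 4.51 and 3.68 in surviving neurons, so that the difference was much smaller against dying replicate 2. Gnai2 was detected on 1 of the dying arrays, and no difference is given for it. Plcb3 and Plcb4, forms of phospholipase C, gave -2.10 and -1.59, with adjusted p of 0.135 and 0.229. The subunit Chrnb1, detected on 1 surviving array, overlapped between the groups, with an adjusted p of 0.405.

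Between surviving neurons and sham, 5 of 39 pathway probes passed, 1 higher and 4 lower, beside 18.9% of 26905 probes, 1835 of them higher and 3241 lower. The 4 lower were the Gi subunits Gnai1 and Gnai3, Plcb4 and the calcium-release receptor Itpr1. Gnai3, Plcb4 and Itpr1 fell by 2.72, 3.07 and 1.93 on the log2 scale, with adjusted p of 0.0111, 0.0233 and 0.0237. Gnai1, not detected in surviving neurons, was at least 4.98-fold lower, with an adjusted p of 0.0103. The subunit Chrnb4, not detected in sham, was at least 2.22-fold higher, with an adjusted p of 0.036. The count of 5 became 1 without sham replicate 2 and 0 without sham replicate 1, surviving replicate 1 or surviving replicate 2. Another Itpr1 probe, detected on 3 arrays, none of them sham, went the other way in surviving neurons, at least 1.26-fold higher than in sham, with an adjusted p of 0.145. Other scalings gave 7 higher and 2 lower at the 75th percentile and 9 higher and 2 lower at the median of the detected probes, quantile normalization gave 3 higher and 2 lower, and normexp gave 0 calls. Ache differed by -0.90, with an adjusted p of 0.213, and turned positive under 2 alternative scalings, up to 0.07.

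Between dying neurons and sham, 16 of 35 pathway probes passed, 5 higher and 11 lower, beside 44.1% of 25623 probes, 3863 of them higher and 7426 lower. Of the Gi and Go list all 3 probes, those of Gnai1, Gnai2 and Gnai3, were lower, though Gnai1 was detected on 0 dying arrays and Gnai2 on 1. Gnao1, the Go gene of that list, had no probe. Of the list of channels under muscarinic control 3 of 7 were lower and 0 higher. Of these 3, 1 was a weaker Kcnq5 probe, detected on 1 dying array, with a limma adjusted p of 0.0115. The brighter Kcnq5 probe did not pass, with 0.281. Of the other nicotinic subunits 3 of 6 were higher and 1 lower, and of the Gq and phospholipase C list 2 of 5 were lower. Acetylcholine breakdown had 1 of 3 lower, receptor partners 1 of 4 higher and 1 lower, synthesis and packaging 1 of 2 higher, and receptor desensitization 0 of 5 in either direction. The 5 higher calls were each detected on at most 1 sham array, and among the 19 pathway probes detected on all 4 arrays 0 were higher and 8 lower. Of all 16180 probes detected on these 4 arrays, 1120 were higher and 6036 lower.

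Among the calls detected on all 4 arrays, Kcnj6 had the greatest fall in dying neurons, from 6.38 and 5.97 in sham to 0.38 and 2.99. The log2 difference was -4.49 ± 0.81 (SE), with an adjusted p of 0.00493. Kcnq3, a subunit of the potassium channel that Gq-coupled muscarinic receptors close, gave -2.77, Itpr1 -2.30 and the subunit Chrne -2.30, with adjusted p of 0.0371, 0.00552 and 0.0248. Gnai2, detected on 1 dying array, was lower, with an adjusted p of 0.00484. Gnai1, not detected in dying neurons, was at least 4.18-fold lower, with an adjusted p of 0.00494. Ache fell by 2.28, with an adjusted p of 0.00879, by its brightest probe, and by its weaker probe the difference was -0.88, with an adjusted p of 0.124. The subunit Chrng, detected on 1 sham array, was higher in dying neurons, with an adjusted p of 0.0132. Chrnb4 and Chrnb1, not detected in sham, entered the comparison through the dying arrays alone and were at least 2.01-fold and 1.06-fold higher. Their limma adjusted p of 0.0211 and 0.0197 are of differences that use sham signals below background, not of these bounds. Without sham replicate 1 the 16 calls became 3, and without sham replicate 2 they became 9. The split of 5 higher and 11 lower became 7 and 7 at the median of the detected probes, and normexp gave 0 calls.

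**Figure D3:**
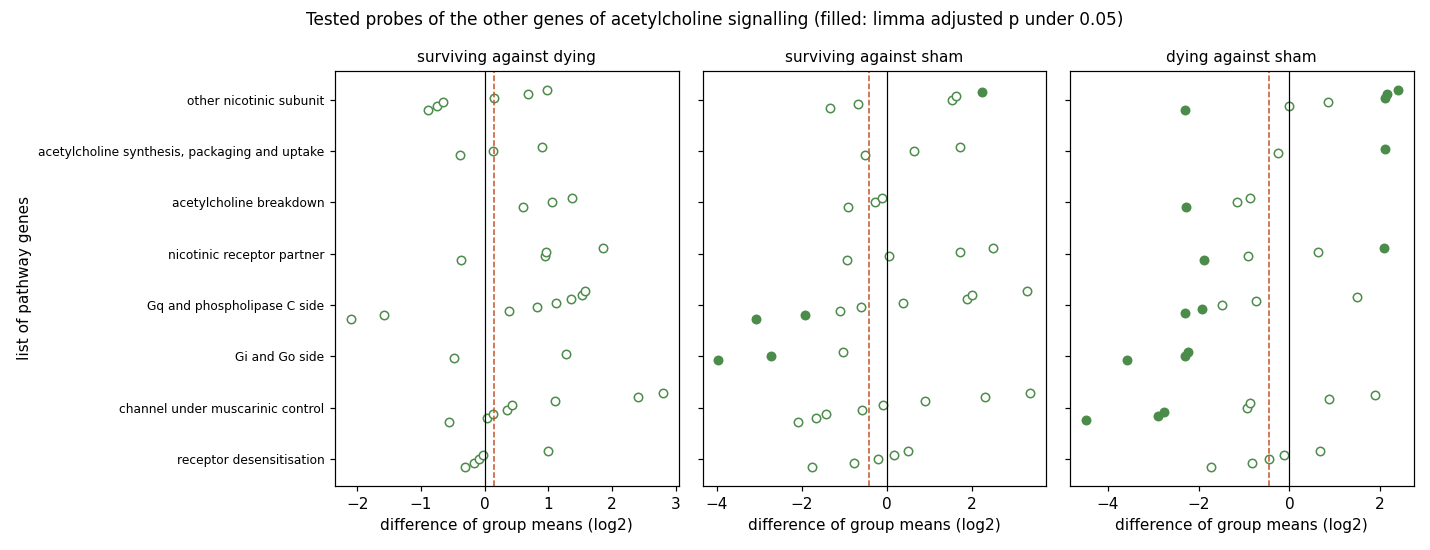
Difference of group means on the log2 scale (horizontal axis) of each tested probe of the 8 pathway lists (vertical axis) in 3 comparisons. Each point is 1 probe, filled where the limma adjusted p was under 0.05, and the dashed line is the median over all probes compared. In dying neurons against sham, Kcnj6 lies at -4.49, and between surviving and dying neurons no point is filled.

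The enzyme Chat, which makes acetylcholine, is a mark of cholinergic neurons, whose cell bodies do not lie among CA3 pyramidal neurons. Chat was detected on the 4 injured arrays and on 0 control arrays. Its log2 signal was 0.21 and -0.87 in dying and -1.01 and -0.44 in surviving neurons, and -2.58 and -2.30 in sham. It passed the test in dying neurons against sham, with an adjusted p of 0.0133, as did Rapsn, which clusters nicotinic receptors at the muscle endplate, with 0.0137. Neither has a fold above the detection limit of the sham arrays. In surviving neurons Chat did not pass, with an adjusted p of 0.0515. The vesicular transporter Slc18a3 differed from sham by 0.64 in surviving and -0.25 in dying neurons, with adjusted p of 0.628 and 0.824, and the second difference turned positive under 4 alternatives, up to 0.75. The choline transporter Slc5a7 was detected on 5 arrays, of which 1 was a dying array, and did not pass between surviving and dying neurons, with an adjusted p of 0.971 and a direction that turned under 3 alternatives. Bche, the second enzyme that splits acetylcholine, was detected on 0 arrays.

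Between sham and naïve, 0 of 26 pathway probes passed in limma, as did 0.0% of 20676 probes. An unadjusted p under 0.05 was found for 1 of the 26 and for 997 of the 20676. Kcnq5 gave a log2 difference of 1.36, Slc18a3, detected on 1 naïve array, overlapped between the groups, and Gnai1, not detected in naïve, was at least 2.06-fold higher in sham, with the same adjusted p of 0.882. Kcnj9, detected on 1 sham array, was lower in sham, with an adjusted p of 0.882. Rgs4 and Plcb4 gave -0.59 and -0.43, with adjusted p of 0.882 and 0.898, and turned positive under normexp. Ache gave 0.26, with 0.906, and turned negative under 3 alternative scalings.

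Marker genes bear on what the pools held. Of the pyramidal neuron list, 8 of 10 genes had a probe, and all 8 were detected on every array but dying replicate 1, where Grik4, a kainate receptor subunit rich in CA3, was not. The summed scaled signal of this list was 3083 and 3275 in dying, 6024 and 5870 in surviving, 11052 and 9696 in sham and 6077 and 8331 in naïve neurons. Its brightest gene, Nrgn, gave 11.53 and 11.51 in dying and 12.37 and 12.43 in surviving neurons on the log2 scale. On the dying arrays Chrm3, Chrm4 and, by its 10-spot probe, Chrna7 were lower than on the surviving arrays. The sum of the list, to which Nrgn gave most, was lowest there, but not every gene of the list was. The mean of Slc17a6 was lowest in surviving neurons, at 3.35 against 4.89 in dying, and that of Neurod2 in naïve neurons, at 4.48 against 5.03 in dying. The other genes of the list with a probe had their lowest mean in dying neurons. The median over the list was 2.84 on dying replicate 1 and 4.99 on dying replicate 2, beside 4.91 on surviving replicate 2 and 4.95 on sham replicate 1. The part of these markers in the receptor differences was not tested. In pooled RNA, fewer neurons and less of an RNA in each neuron cannot be told apart.

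The microglia and macrophage list of 10 genes summed to 2561 and 1266 in dying, 352 and 417 in surviving, 298 and 279 in sham and 157 and 321 in naïve neurons. Of it 8 genes were detected on each control array, 10 on each surviving array and 9 and 10 on the dying arrays. Itgam was not detected on the control arrays, nor was Cx3cr1, which was also missing on dying replicate 1. Its gene with the highest mean over the arrays, C1qa, gave 8.88 and 8.55 in dying and 6.74 and 6.99 in surviving neurons. On the dying arrays Chrna4 was higher than on the surviving arrays, and Chrm3, Chrm4 and, by its 10-spot probe, Chrna7 were lower. The sum of the list was highest there, as was the median over the list, at 5.96 and 5.06. Single genes went another way: the mean of Aif1 was 5.03 in sham and 4.89 in dying neurons, that of Csf1r 1.86 and 1.52, and that of Cx3cr1 -1.12 and -1.91. The other genes of the list had a higher mean in dying neurons than in sham. The part of these markers in the receptor differences was not tested.

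The interneuron list of 8 genes summed to 697 and 176 in dying, 173 and 167 in surviving, 609 and 530 in sham and 440 and 587 in naïve neurons. Its brightest gene was Pvalb, detected on all 8 arrays, and Lhx6 was detected on none. Dying replicate 1 stood above the controls, with Sst at 8.50 as its highest gene of the list, and dying replicate 2 beside the surviving arrays. The part of interneurons in the receptor signals was not tested.

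The astrocyte list, led by Slc1a3, summed to 1215 and 534 in dying, 475 and 496 in surviving, 1432 and 900 in sham and 851 and 986 in naïve neurons. Gfap went another way, with a mean of 3.15 in surviving, 2.36 in dying, 1.67 in sham and 1.76 in naïve neurons. On dying replicate 1 it was 1.10. The mean of Aqp4 in surviving neurons lay between those of naïve and sham. The other genes of the astrocyte list with a probe had their lowest mean in surviving neurons. Precursors of oligodendrocytes, led by Olig1, summed to 1012 and 548 in dying, 252 and 281 in surviving, 578 and 432 in sham and 408 and 383 in naïve neurons. Endothelium, led by Vwf, summed to 151 and 85.4 in dying, 41.0 and 33.1 in surviving, 44.5 and 33.3 in sham and 25.8 and 47.0 in naïve neurons, with Tek detected on no array. These 2 sums were highest on a dying array. Of the precursor genes, Olig1 and Cspg4 had their highest mean in dying neurons, but the mean of Pdgfra was 4.03 in dying, 5.32 in sham and 4.83 in naïve neurons. The median over the precursor list was 5.93 and 4.29 in dying, 5.31 and 4.67 in sham and 4.88 and 4.41 in naïve neurons. Infiltrating leukocytes, led by S100a9, summed to 14.6 and 19.1 in dying, 3.84 and 3.53 in surviving, 2.44 and 2.34 in sham and 4.90 and 4.77 in naïve neurons. Cholinergic neurons, led by Slc18a3, summed to 4.42 and 4.98 in dying, 8.61 and 4.83 in surviving, 2.34 and 7.71 in sham and 2.34 and 1.17 in naïve neurons. The part of these cells in the receptor signals was not tested.

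**Figure D4:**
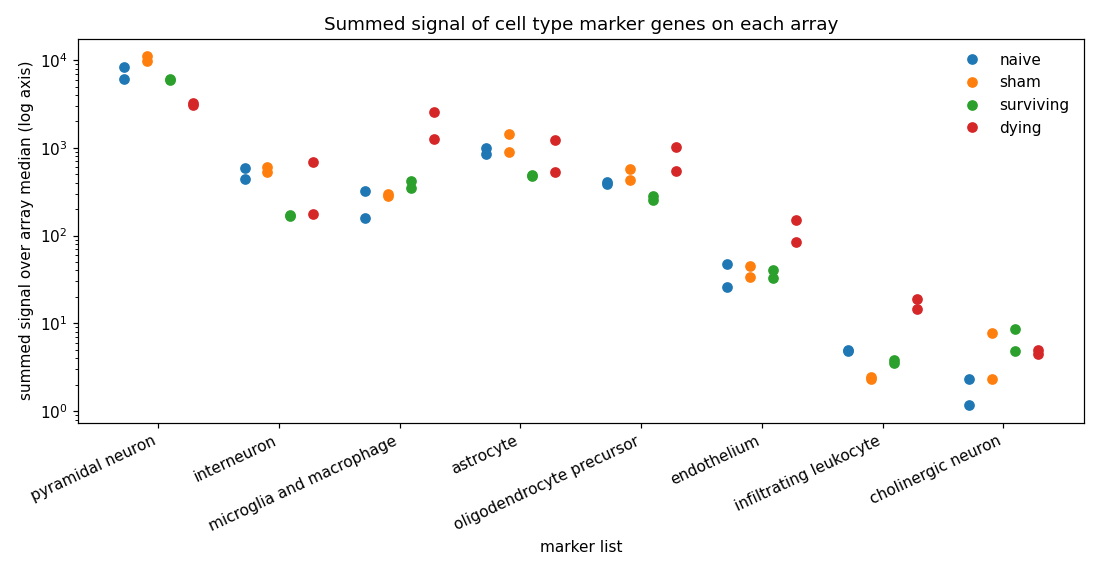
Summed signal over the array median of each list of marker genes given in the text (vertical axis, log scale) on each array, by list (horizontal axis) and group (color). The pyramidal neuron list lies at 3083 and 3275 on the dying arrays, below every other array, and the microglia and macrophage list at 2561 and 1266, above every other array.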

How the data were processed

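RNA from laser-captured CA3 neurons of 4 groups was measured on 8 arrays, 2 per group, which limits the precision. The processed intensity of each spot comes from Agilent Feature Extraction as run by the authors (9.1.3.1 per the file headers), with background and spatial trend removed and arrays not normalized to each other, and mean and local background intensities were deposited beside it. Other columns that the authors deposited hold marks of 0 or 1 for detection, saturation, uneven spots and controls. The ratio values of the series table, made by the authors, equal the processed intensity over 1 constant per array with a floor. Their scale and direction are thereby known, no centering of genes was seen, and the column medians were 0.218, 0.149, 0.131, 0.149, 0.256, 0.259, 0.212 and 0.282 in the order naïve, sham, surviving, dying.

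Controls and spots marked uneven were dropped and the rest averaged per probe. Signals over the array median were taken to log2, with a floor of 0.01 that no value reached. A probe was detected if more than 0.5 of its usable spots were marked well above background. Tests of pathway genes used limma 3.58.1 (R 4.3.3), fitted across all probes and the 4 groups, two-sided, with Benjamini-Hochberg adjustment over the probes detected on both arrays of at least 1 group compared. The p-values rest on the spread between the arrays of each group, shared over the 4 groups. That spread was unlike between groups. The SD of the log2 difference between replicates, over probes detected on both, was 0.54 in sham and 1.18 in dying neurons. How much of it is spread between rats is not known. Tables were made with Python 3.11.15, pandas 2.3.3 and numpy 2.4.6, and plots with matplotlib 3.10.9. RefSeq tables of GRCr8 held the accessions of 9 of the 12 receptor probes.

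The named genes were all 8 receptors with every probe and, of the pathway lists and for each comparison, up to 6 genes in each direction with the greatest change past the threshold. Where none passed, the 3 in each direction with the smallest p-values were named, each from the brightest probe of the gene. Chat, Slc18a3, Slc5a7, Ache and Bche, the brightest gene of each marker list given (the oligodendrocyte list is not reported here) and the 3 most similar probes of each receptor detected on all arrays were also named. The receptors and lists were chosen with earlier results of these data known. Alternatives were other scalings, quantile normalization, normexp with an offset of 50, the series table, a floor of 0.1, uneven spots kept, other filters and fits, and leaving out each array.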

Additional observations from a re-analysis of the deposited data

How the results depend on the processing

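Of the receptor differences that entered a comparison, 140 values under the alternatives other than leaving out an array moved by less than 1 SD between replicates, 49 moved by more, and 5 changed direction where the groups had not overlapped under the main scaling. The 5 were Chrna7 between surviving neurons and sham, which turned from -0.49 to 0.29 at the 75th percentile, 0.49 at the median of the probes detected on all arrays, 0.21 with quantile normalization and 0.36 with normexp, and Chrna4 between dying neurons and sham, which turned from -0.86 to 0.15 at the median of the detected probes. Where the groups had overlapped, and the direction was not called, it also changed under at least 1 alternative for Chrm1, Chrm2 and Chrnb2 between surviving and dying neurons, Chrm4 and Chrnb2 between surviving neurons and sham, Chrm4 between dying neurons and sham, which turned from -0.59 to 0.14, 0.42 and 0.66, and Chrna4 between sham and naïve, which turned from -0.70 to 0.20. The scaling to those probes by its construction raised every difference from sham, by 0.97 for surviving and 1.01 for dying neurons. With 2 arrays a group, leaving out 1 moves a mean by less than 1 SD by construction, so that the 92 such values say nothing of stability. The mean over probes of Chrm4 could not be formed for sham against naïve, since 1 probe had no usable spot on naïve replicate 1.

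Among the pathway probes, the 5 calls between surviving neurons and sham became 9 at the 75th percentile, 11 at the median of the detected probes, 0 with normexp, 3, all lower, among probes detected on all 4 arrays, where fewer were compared, 15 with only the 4 arrays compared, and 0 to 1 with an array left out. The 16 calls between dying neurons and sham became 0 with normexp, 8, all lower, among probes detected on all 4 arrays and 3 to 16 with an array left out. Between surviving and dying neurons 0 to 3 passed with an array left out, the 3 without dying replicate 2, and between sham and naïve 0 to 0. The lone array of a group was then assumed to vary like the other groups. The cause of the other changes was not tested.

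Of all calls between surviving neurons and sham, 36.2% were higher in surviving neurons, against 73.4% at the 75th percentile, 80.0% at the median of the detected probes, 25.6% at the median of RefSeq probes, 59.3% with quantile normalization and 6.56% among probes detected on all 4 arrays. Between dying neurons and sham the main share was 34.2%, against 59.7%, 68.6% and 56.3% at the 75th percentile, at the median of the detected probes and with quantile normalization, and 15.7% among probes detected on all 4 arrays. With the replicate number as a block the pathway counts were 0, 5, 16 and 0, as without it, in the order in which the report takes the 4 comparisons. The replicate deviations of 2 groups correlated between -0.194, for surviving and dying, and 0.071. Surviving and dying pools may share rats and sections, and whether the replicate numbers pair them is not known. A crossed pairing of surviving and dying arrays, chosen after seeing the data, gave 0. Weak receptors such as Chrm2, Chrm5 and Chrnb2 are limited by their signal over background.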
